A study of Mus musculus with 6 samples.

Results

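Doc2a and Prrt2 are neuronal genes of transmitter release that lie in the mouse segment matching human 16p11.2. They are described here with 8 genes of the same release step that lie elsewhere in the genome: the calcium sensors Doc2b, Syt1, Syt2 and Syt7, the complexins Cplx1 and Cplx2, and the SNARE genes Snap25 and Vamp2. The 10 genes were chosen by name, with earlier results of these data known, from 45470 gene names that could be tied to their counts. All 10 were among the 15398 genes with enough counts to be tested. RNA of prefrontal cortex homogenate was sequenced in 3 libraries of mice heterozygous for the 16p11.2 duplication and in 3 libraries of wild type mice, all at postnatal week 8. The line began on a mixed background of C57BL/6N and 129Sv and was crossed to C57BL/6 for 10 generations. Libraries held 14891890 to 21872271 counts in duplication mice and 12988457 to 14369271 in wild type mice. In the joint table of counts the names stand up to 6 lines away from the counts they belong to, and every value is given after names were moved back to their counts.

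An action potential opens calcium channels at the nerve terminal, and calcium binding to C2-domain sensors on the vesicle lets SNARE proteins of the vesicle and of the plasma membrane zip together and fuse the membranes. Synaptotagmins with fast kinetics (Syt1, Syt2) drive release in step with the spike, whereas sensors of higher calcium affinity (Syt7, Doc2a, Doc2b) have been linked to delayed, facilitated and spontaneous release. Complexins clamp and then promote fusion of the assembled SNARE complex, and PRRT2 is a membrane protein that binds SNAREs and sodium channels and is mutated in human paroxysmal movement disorders and infantile seizures.

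Reads that match both genes of a paralog pair could be counted for neither or for the wrong one, so the exact matches between paralogs were measured. The longest stretch that the coding sequences of each pair share without a mismatch stands in capitals, with 15 bases on either side in lower case, 5′ to 3′ on the coding strand, from GENCODE M21 transcripts (mouse build GRCm38, the same as mm10). It was 14 bases in the DOC2 pair, 26 bases in the synaptotagmin pair and 32 bases in the complexin pair, and the aligned coding sequences were 63.7%, 73.4% and 80.1% identical.
Doc2a: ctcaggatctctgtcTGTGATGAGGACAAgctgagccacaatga
Doc2b: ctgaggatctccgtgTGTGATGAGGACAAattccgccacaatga
Syt1: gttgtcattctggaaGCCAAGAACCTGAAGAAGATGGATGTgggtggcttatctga
Syt2: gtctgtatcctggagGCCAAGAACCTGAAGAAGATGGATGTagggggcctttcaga
Cplx1: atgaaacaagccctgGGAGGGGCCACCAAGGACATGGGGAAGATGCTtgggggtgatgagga
Cplx2: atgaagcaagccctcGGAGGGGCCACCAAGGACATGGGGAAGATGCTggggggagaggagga
Shared sequence lay instead with neighbours on the chromosome. Of the 50-base windows of Prrt2 transcripts, 84.4% also occur in transcripts of the predicted gene Gm42742, and of those of Doc2a, 28.7% also occur, on the opposite strand, in transcripts of Ino80e. The share was 4.5% for Doc2b and 4.3% for Syt7, each with an antisense gene, and at most 2.1% for the other 6 genes.

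Doc2a, a high-affinity calcium sensor with tandem C2 domains, was higher in the duplication cortex. The gene lies on chromosome 7 at chr7:126847416-126852705 (mm10, plus strand), with 12 separate exon blocks. It had 89.1, 138 and 96.4 CPM (counts relative to library size, scaled with TMM factors) in duplication replicates 1 to 3, against 56.9, 63.7 and 64.0 CPM in wild type replicates 1 to 3. Every duplication library lay above every wild type library, and replicate 2 was the highest of them. The mean was 108 ± 26.6 CPM in duplication mice and 61.5 ± 3.98 CPM in wild type mice (SD, n = 3 each). The log2 fold change of duplication over wild type was 0.81 ± 0.15 (SE), with a 95% interval of 0.47 to 1.15 that includes the 0.585 that 3 gene copies against 2 would give. Adjusted over all genes it did not pass in edgeR (adjusted p = 0.163) and passed in DESeq2 (adjusted p = 6.88e-05).

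Among the 23 tested genes of the duplicated segment the log2 fold change of Doc2a ranked eighth, above their median of 0.75. Of the segment genes, Doc2a included, edgeR called 0 and DESeq2 17. DESeq2 called 0.324% of all genes higher and 1.68% lower. Duplication replicate 2 exceeded the mean of the other duplication libraries by 0.58 on the log2 scale for Doc2a, the second-ranked excess of the 23 genes, whose median excess was 0.43. Without that library the log2 fold change of Doc2a was 0.59. The 5 tested genes whose log2 CPM ran most like that of Doc2a over the 6 libraries, which differ in genotype and depth, were Pagr1a (Pearson r = 0.995) and Kctd13 (0.988) of the same segment, and Sugt1 (0.991), E2f5 (0.990) and Cd83 (0.989) on other chromosomes.

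Ino80e, a subunit of the INO80 chromatin remodeller, is encoded on the opposite strand and covers 1103 of the 2803 exonic bases of Doc2a (39.4%). The libraries are stranded, but no source names the setting with which strand was counted, so the values of this gene pair are uncertain. Ino80e is duplicated too, and it had 26.8, 36.1 and 28.2 CPM in duplication libraries, against 19.3, 18.6 and 15.5 CPM in wild type libraries. The log2 ratio of Doc2a to Ino80e counts was 1.73, 1.94 and 1.77 in duplication libraries and 1.56, 1.77 and 2.04 in wild type libraries, so the groups overlapped for the ratio.

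Prrt2 was close to the limit of detection in every library. It lies at chr7:127017531-127021211 (mm10, minus strand). Its raw counts were 11, 14 and 18 in duplication replicates 1 to 3, against 7, 3 and 14 in wild type replicates 1 to 3. The exact Poisson 95% intervals, which cover counting error only, reached from 5.49 to 28.4 over the duplication libraries and from 0.619 to 23.5 over the wild type libraries. In CPM these are 0.503, 0.947 and 1.14 in duplication libraries and 0.556, 0.209 and 1.03 in wild type libraries, and the groups overlapped. The log2 fold change was 0.48 ± 0.52 (SE), with a 95% interval of -0.69 to 1.66 that holds both 0 and 0.585, and it did not pass (edgeR adjusted p = 0.628). With these counts the interval does not separate no change from a change of the size of the extra copy.

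The exons of Gm42742 cover 92.4% of the exonic bases of Prrt2 on the same strand in the GENCODE annotation, and no strand setting separates such reads. Gm42742 is not among the names of the joint table of counts, so no counts could be read for it. No source used says how reads in such an overlap were treated. The part of this overlap in the low counts of Prrt2 was not tested. Because no same-strand partner was available to add, the planned summed level was that of Prrt2 alone, 0.861 ± 0.325 CPM in duplication mice and 0.597 ± 0.410 CPM in wild type mice (exact permutation test over libraries, two-sided, p = 0.5, adjusted 0.5 over 2 such tests). The genes on either side were counted well: Pagr1a had 16.7, 21.98 and 16.5 CPM in duplication libraries against 12.3, 13.4 and 13.2 CPM in wild type libraries, and Maz, a zinc finger factor, had 110, 157 and 105 CPM against 74.4, 72.9 and 74.0 CPM. Among the genes that ran most like Prrt2 over the 6 libraries were Plekha3, Upk1b, Polr3k and Tmem79, at Pearson r of 0.970 to 0.996, a likeness that rests on the few counts of Prrt2, and 0 of them lie in the segment.

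**Figure D1:**
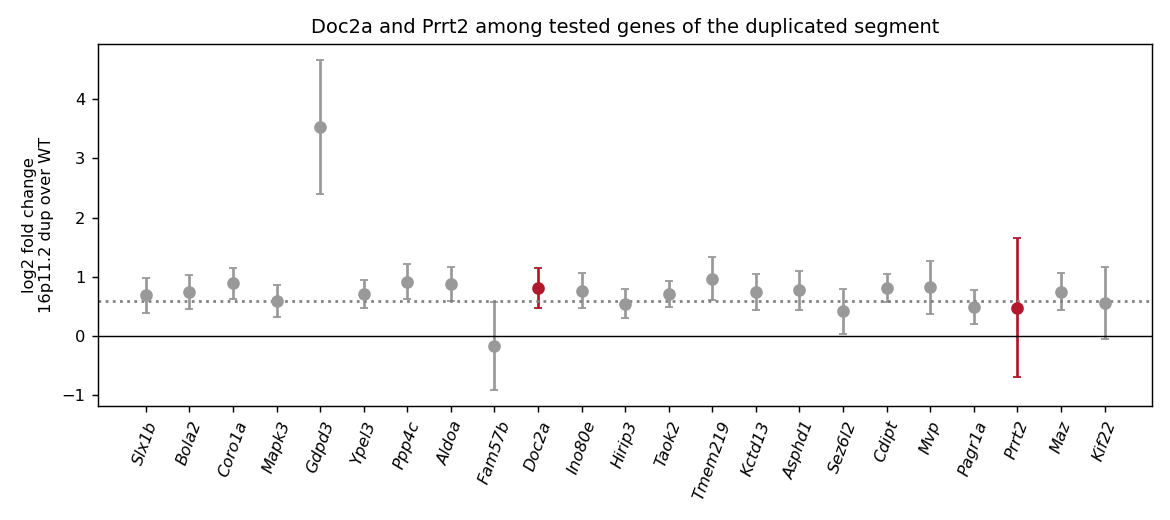
Log2 fold change of duplication over wild type (y axis) for the 23 tested genes of the duplicated segment, in their order along the chromosome (x axis), with 95% intervals and a dotted line at 0.585. Doc2a (red) stands at 0.81 among genes with a median of 0.75, while the interval of Prrt2 (red) runs from -0.69 to 1.66.

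None of the 10 genes passed over all genes in edgeR with all libraries, where 0.000% of the 15398 tested genes were called higher and 0.000% lower. At an unadjusted p under 0.05, 2 of the 10 were higher and 4 lower, against 7.05% and 12.2% of all tested genes. DESeq2 called 1, Doc2a, as higher, against 0.324% called higher and 1.68% called lower of the 14201 genes to which it gave an adjusted p, and limma-voom called 0, against 0.000%. The 3 duplication libraries all lay above the 3 wild type libraries for Doc2a and Snap25, as they did for 11.7% of tested genes, and all below them for Syt7, as for 10.5%. Apart from Doc2a, the log2 fold changes of the genes with an unadjusted p under 0.05 were 0.17 for Snap25 and -0.26 to -0.71 for Syt7, Syt2, Doc2b and Vamp2.

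**Figure D2:**
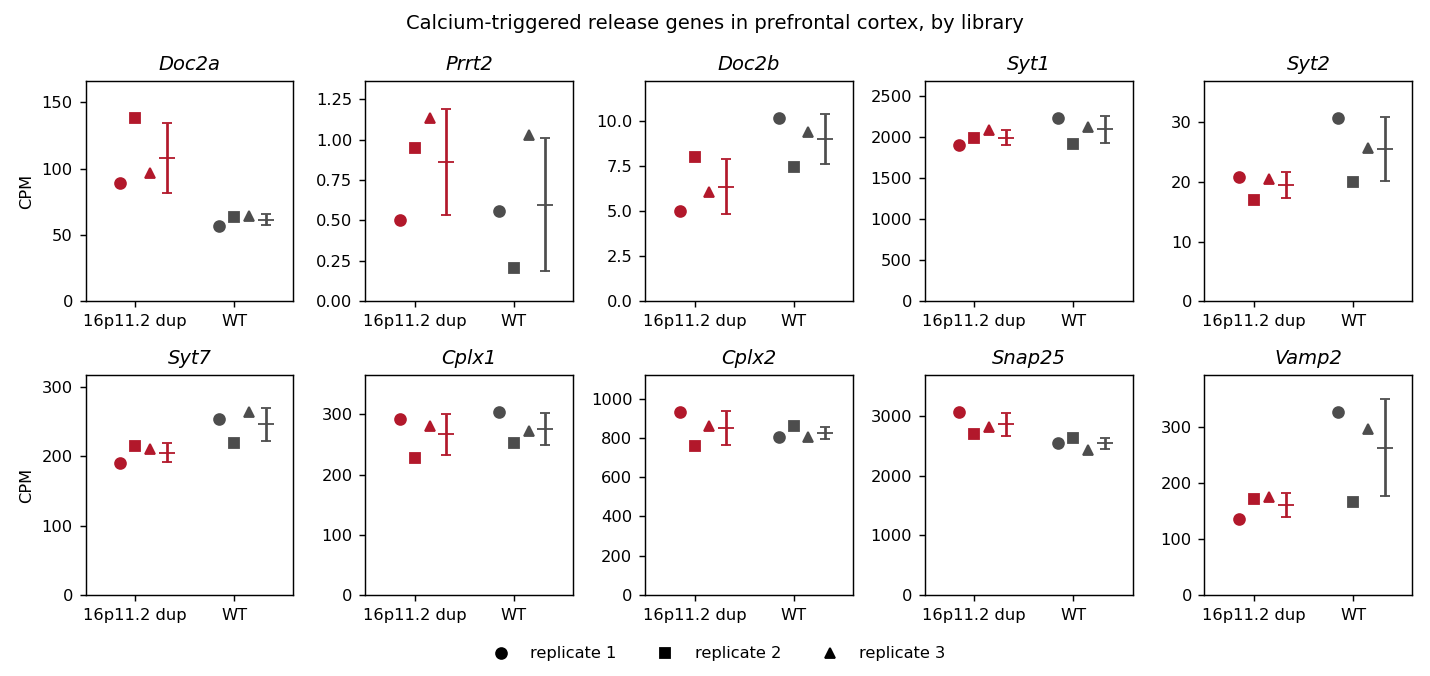
CPM (y axis, from 0) of the 10 release genes in each duplication and wild type library, with marker shape for the replicate number and a bar for the mean ± SD (n = 3 each). Groups do not overlap for Doc2a, Snap25 and Syt7, and for Vamp2 wild type replicate 2 sits at 166 CPM among the duplication libraries.

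The paralog Doc2b, which has the same domains as Doc2a and lies on chromosome 11, was scarce. It had 5.03, 7.98 and 6.05 CPM in duplication libraries, against 10.2, 7.44 and 9.38 CPM in wild type libraries. Duplication replicate 2 lay above wild type replicate 2, so the groups overlapped. The log2 fold change was -0.51 ± 0.19 (SE) and did not pass (edgeR adjusted p = 0.200). The log2 ratio of Doc2a to Doc2b counts, which does not depend on library size, was 4.15, 4.12 and 3.99 in duplication libraries and 2.49, 3.10 and 2.77 in wild type libraries. Its groups did not overlap, but those of the duplicated Doc2a alone did not either, so the ratio is no separate evidence on Doc2b. The difference in the ratio was 1.30, and the exact permutation test (two-sided) gave p = 0.1, the smallest that 3 against 3 allows, adjusted 0.2 over the 2 such tests.

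Syt1, the fast calcium sensor of most forebrain synapses, was abundant and did not pass. It had 1903, 1988 and 2081 CPM in duplication libraries, against 2235, 1920 and 2121 CPM in wild type libraries. Its groups overlapped, and its log2 fold change was -0.07 ± 0.07 (SE), and its 95% interval ran from -0.23 to 0.08.

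Syt2, the fast sensor of the hindbrain and of many fast-spiking interneurons, had 20.9, 17.0 and 20.6 CPM in duplication libraries and 30.7, 20.0 and 25.6 CPM in wild type libraries. Wild type replicate 2 lay within the duplication range, and the log2 fold change of -0.38 ± 0.15 (SE) did not pass (edgeR adjusted p = 0.227). The 5 genes listed for fast-spiking interneurons were Pvalb, Kcnc1, Kcnc2, Gad1 and Gad2, of which Gad1 and Gad2 are genes of inhibitory neurons in general. Of these 5 genes, 1 had a positive and 4 a negative log2 fold change, with a median of -0.12. The positive one, parvalbumin (Pvalb), had 35.0, 23.6 and 34.9 CPM in duplication libraries, against 28.0, 27.9 and 29.3 CPM in wild type libraries. Kcnc1, a potassium channel of fast-spiking cells, had 52.0, 58.4 and 57.4 CPM in duplication libraries, against 106, 60.5 and 83.3 CPM in wild type libraries, without overlap between the groups. The part of these markers in the Syt2 values was not tested. In homogenate, fewer cells of a type and less RNA per cell cannot be told apart.

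Syt7, a slow sensor tied to facilitation and vesicle replenishment, had 190, 215 and 210 CPM in duplication libraries, against 253, 219 and 264 CPM in wild type libraries. All duplication libraries were lower, though duplication replicate 2 and wild type replicate 2 lay close together. The log2 fold change was -0.26 ± 0.08 (SE) and did not pass (edgeR adjusted p = 0.176).

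The complexins did not differ beyond the spread between libraries. Cplx1, the form enriched in many inhibitory neurons, had 293, 227 and 280 CPM in duplication libraries and 305, 252 and 273 CPM in wild type libraries, a log2 fold change of -0.05 ± 0.10 (SE). Cplx2, the more abundant form in forebrain excitatory neurons, had 934, 760 and 860 CPM in duplication libraries and 807, 859 and 806 CPM in wild type libraries, a log2 fold change of 0.05 ± 0.08 (SE). The 95% intervals were -0.29 to 0.18 for Cplx1 and -0.13 to 0.22 for Cplx2. Either direction turned when 1 library was left out: Cplx1 was at 0.054 without duplication replicate 2 and at 0.025 without wild type replicate 1, and Cplx2 at -0.023 without duplication replicate 1.

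The SNARE genes differed in direction from each other. Snap25, which encodes the plasma membrane SNARE with a pair of SNARE motifs, had 3078, 2703 and 2819 CPM in duplication libraries, against 2553, 2634 and 2441 CPM in wild type libraries. All 3 duplication libraries were higher, by a log2 fold change of 0.17 ± 0.06 (SE) that did not pass (edgeR adjusted p = 0.206). Vamp2, which encodes synaptobrevin of the vesicle membrane, had 135, 171 and 176 CPM in duplication libraries, against 328, 166 and 297 CPM in wild type libraries. Wild type replicate 2 stood with the duplication libraries. The log2 fold change of Vamp2 was -0.71 ± 0.22 (SE) and did not pass (edgeR adjusted p = 0.175). The 5 genes that ran most like Snap25 over the 6 libraries were Klhl24, RP23-37I24.1, Prps1l3, Ap1s1 and Fermt3, at Pearson r of 0.991 to 0.996.

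As well as on the test and the filter, the number of these genes called depended on wild type replicate 2. Without it edgeR called 5 of the 10 over all genes, Doc2a as higher (log2 fold change 0.83, adjusted p = 0.0116) and Vamp2 (-0.96, adjusted p = 0.00190), Syt7 (-0.34, adjusted p = 0.00940), Syt2 (-0.53, adjusted p = 0.0172) and Doc2b (-0.64, adjusted p = 0.0454) as lower. In that fit 4.65% of 15712 tested genes were called higher and 10.7% lower. Leaving out any other single library, edgeR called 0 genes.

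A library-wide measure ran beside several of these genes. Transcripts of the GENCODE class TEC (loci that await experimental evidence) and sense intronic transcripts, 292 tested in all, had a mean level on the log2 scale, centred on the 6 libraries, of -0.44, -0.43 and -0.12 in duplication replicates 1 to 3, against 0.47, -0.00042 and 0.53 in wild type replicates 1 to 3. Vamp2 and Syt7 were highest in the wild type libraries where this level was highest, and Snap25 was lowest there. Doc2a ran against this level too. Over the 6 libraries, which differ in genotype, Pearson r of log2 CPM with the level was -0.82 for Doc2a and -0.83 for Snap25. For Prrt2 it was 0.039. With the level as a covariate in edgeR, which then called 0 genes, the log2 fold change was 0.62 for Doc2a, 2.66 for Prrt2, 0.07 for Snap25, 0.32 for Vamp2, 0.011 for Syt7, 0.14 for Syt2 and -0.17 for Doc2b. The sign of Vamp2, Syt7 and Syt2 thus turned in that fit, while those of Doc2a, Snap25 and Doc2b did not. The unadjusted edgeR p in that fit was 0.93 for Syt7, 0.56 for Syt2, 0.20 for Vamp2, 0.52 for Snap25 and 0.64 for Doc2b. It was 0.062 for Doc2a and 0.011 for Prrt2. For Syt7, Syt2, Vamp2, Snap25 and Doc2b the value in that fit is thus not told apart from 0. The part of this level in the differences cannot be told apart from genotype in these 6 libraries.

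**Figure D3:**
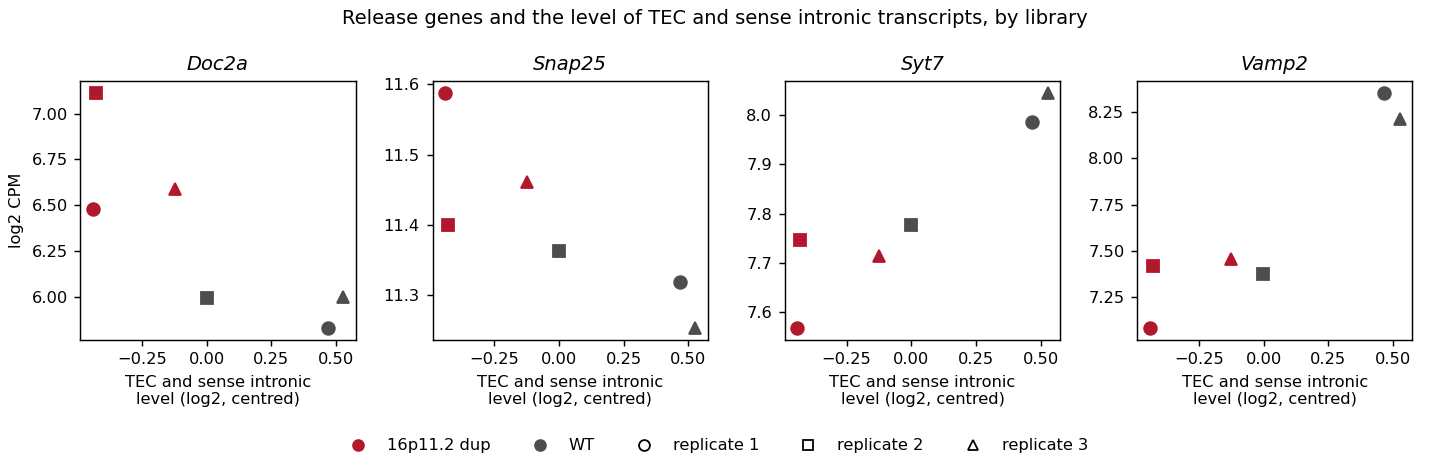
Log2 CPM of Doc2a, Snap25, Syt7 and Vamp2 (y axis, own range in each panel, not from 0) against the centred log2 level of 292 TEC and sense intronic transcripts (x axis) in each library. Wild type replicate 2 lies near 0 on the x axis and close to the duplication libraries for Vamp2 and Syt7, while for Doc2a it stays with the other wild type libraries.

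Cell type markers of the cortex were present in every library. The 6 pan-neuronal markers summed to 3777 to 3910 CPM in duplication libraries and 3734 to 3840 CPM in wild type libraries, and Slc17a7, the vesicular glutamate transporter of cortical excitatory neurons, had 927 to 976 CPM in duplication libraries and 926 to 1143 CPM in wild type libraries. The 5 genes listed for fast-spiking interneurons, among them Gad1 and Gad2 of inhibitory neurons in general, summed to 562 to 591 CPM in duplication libraries. In wild type libraries they summed to 563 to 763 CPM. The 8 meningeal fibroblast markers, none of them at 0 in any library, summed to 28.8 to 56.3 CPM in duplication libraries and 17.7 to 26.1 CPM in wild type libraries, and 6 of the 8 were higher at an unadjusted p under 0.05, against 7.05% of all tested genes. The 6 oligodendrocyte markers summed to 1170 to 1581 CPM in duplication libraries and 1305 to 2284 CPM in wild type libraries. Their part in the values of the release genes was not tested.

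Per base of exon, the 10 genes spanned more than 3 orders of size. On the RPKM scale (CPM per kilobase of exon), the wild type means ran from Snap25 at 374, Syt1 at 251, Cplx2 at 167 and Cplx1 at 126 through Vamp2 at 69.1, Syt7 at 32.8 and Doc2a at 21.9 to Syt2 at 3.33, Doc2b at 2.06 and Prrt2 at 0.189. In duplication mice Doc2a, at a level of 38.5 RPKM (range 31.8 to 49.4), stood above Syt7 at 27.4 (25.3 to 28.7) and overlapped Vamp2 at 42.2 (35.5 to 46.1). In wild type mice the Doc2a range of 20.3 to 22.8 RPKM lay below that of Syt7, 29.3 to 35.3. No other neighbours in the order overlapped in either genotype. The levels of Doc2a and Prrt2 per base are uncertain for the overlaps given above. The 3809 exonic bases of Vamp2 stand in 2 blocks that fill nearly all of the gene, at chr11:69088490-69092384 (mm10). The level of Vamp2 per base is therefore uncertain too. With such blocks, reads from its introns could be counted as Vamp2, so its CPM and log2 fold change carry this limit as well. The part of such reads was not tested.

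Other genes of vesicle fusion were more often lower than higher at an unadjusted p, as were all tested genes, and none passed over all genes. Of 66 further genes listed by role, 64 had a name that could be tied to counts and 60 were tested. None of the 60 passed in edgeR. At an unadjusted p under 0.05, 8 (13.3%) were higher and 18 (30.0%) lower, against 7.05% and 12.2% of all tested genes, with a median log2 fold change of -0.04 against 0.0050 over all tested genes. DESeq2 called 2 as lower, where it called 1.68% of all genes lower and 0.324% higher: the vesicle protein gene Sv2c and Prrt1, a Prrt2 relative that associates with AMPA receptors. Without wild type replicate 2, edgeR called 4 (6.56%) of the 61 then tested as higher and 13 (21.3%) as lower, against 4.65% and 10.7% of all genes. With all libraries, the groups did not overlap for 12 of the 60 (20.0%) as higher and 9 (15%) as lower, against 11.7% and 10.5% of all tested genes.

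Among 13 tested sensors and C2 proteins beside the core genes, the median log2 fold change was -0.08. Syt9, a fast sensor of some limbic and striatal neurons, was at -0.54 ± 0.14 (SE), and Syt10, a sensor of peptide secretion in the olfactory bulb, at -0.47 ± 0.13. Both were lower in all 3 duplication libraries, without passing. The 1 further complexin tested, Cplx3, had 5.44, 4.06 and 3.78 CPM in duplication libraries and 3.57, 7.65 and 12.5 CPM in wild type libraries.

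The 12 other SNARE genes had a median log2 fold change of -0.03. Snap47, a relative of Snap25, was higher in each duplication library, at 0.20 ± 0.06 (SE). Of the 11 priming and SNARE-binding factors, with a median of -0.15, Unc13b, a Munc13 priming factor, was at -0.15 ± 0.06 and lower in every duplication library.

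The 8 genes of SNARE disassembly and chaperoning had a median of 0.08. Sncb, beta-synuclein, was at -0.48 ± 0.16 (SE) and lower in every duplication library. Of 11 Rab3 and vesicle membrane genes, with a median of -0.08, Sv2c was at -0.68 ± 0.21 and Rab3b, a vesicle GTPase, at -0.28 ± 0.09, both lower in every duplication library. Of the 4 tested Prrt2 relatives of the CD225 family, Prrt1 was at -0.85 ± 0.26 and had 7.22, 9.33 and 11.6 CPM in duplication libraries, against 19.4, 10.4 and 20.8 CPM in wild type libraries. Syndig1, a synapse differentiation gene of the same family, was at 0.34 ± 0.11 and higher in each duplication library.

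**Figure D4:**
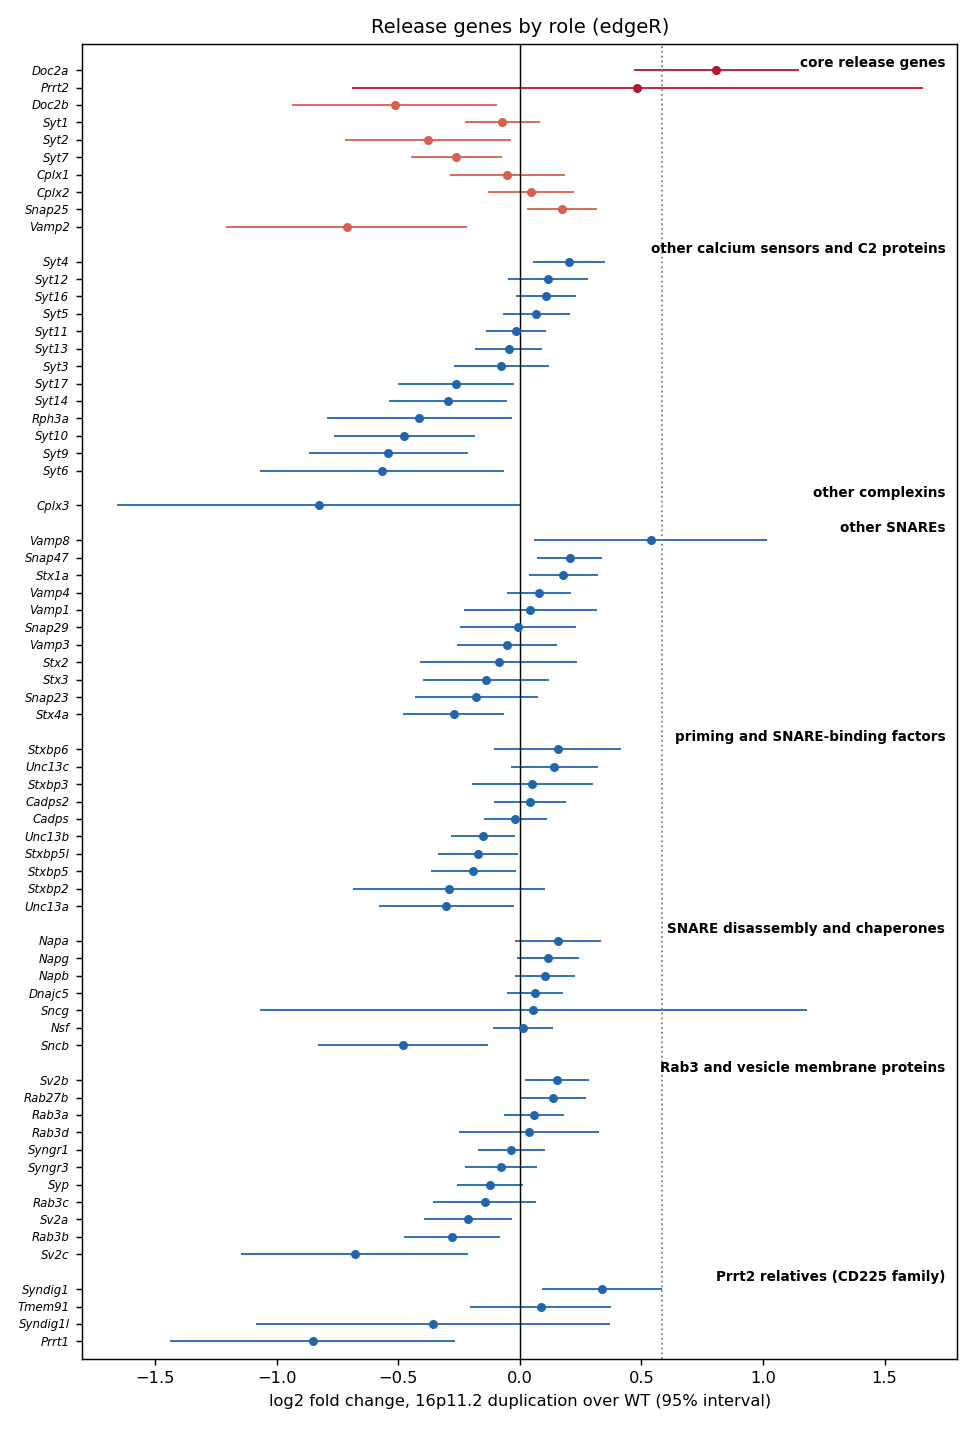
Log2 fold change of duplication over wild type with 95% intervals (x axis) for the 10 core release genes, Doc2a and Prrt2 in dark red, and for further tested release genes in blue, grouped by role (y axis), with a dotted line at 0.585. The interval of Doc2a lies above 0 from 0.47 to 1.15, while that of Syt1 runs from -0.23 to 0.08.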

How the data were processed

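Deposited values are raw gene counts from the authors, in a joint table and in 1 table per library. The submitters' processing notes name cutadapt, TopHat2, HTSeq and mm10, without versions. RNA was extracted with Trizol and made into stranded libraries after ribosomal RNA removal, per the labels' protocols. No label says that libraries came from separate animals, so the spread behind each p may be technical.

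The joint table has 45807 lines of counts, 6 of them beyond its names. Names were moved by 0 to 6 lines in 6 steps, and names within 25 lines of a step were left out. The 10 genes lay 1053 lines or more from a step, and in the lines around them the best offset equalled the rule for 10 of 10. Lines without a usable name held 0.909% to 0.954% of counts. Of the names used, 91.8% were in GENCODE M21.

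edgeR 4.0.16 (R 4.3.3) was used with TMM, filterByExpr and the quasi-likelihood test, and Benjamini-Hochberg adjusted p under 0.05 over all tested genes was called. DESeq2 1.42.0 and limma 3.58.1 were alternatives, with other scalings, filters and left-out libraries. The script was tested on simulated data. The 10 genes and all lists were chosen with earlier results of these data known. Further genes named are the 2 with the smallest p in each role group, the 5 most alike in pattern to Doc2a, Prrt2 and Snap25, genes that overlap or adjoin the 10, and markers. Some genes that this rule names are not reported here.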

Additional observations from a re-analysis of the deposited data

How the results depend on the processing

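Calls depended on the test, the filter and 1 library. Genes called numbered 285 with DESeq2, 1016 without a filter on low counts, 7 with the replicate block, 1320 without both libraries numbered 2, and 0 to 2406 over the fits that leave out 1 library, against 0 with all libraries. DESeq2 called 0.324% of all genes higher and 1.68% lower. The fit without a filter called 173 of 26418 tested genes higher and 843 lower. Without both libraries numbered 2, 230 of 15566 tested genes were called higher and 1090 lower. Of the 10 release genes, DESeq2 called 1, the fit without a filter 2 (Doc2a higher and Vamp2 lower), the fit without both libraries numbered 2 called 4 (Doc2a higher, and Doc2b, Syt7 and Vamp2 lower), and leaving out 1 library gave 0 to 5. Of the further release genes these fits called 2, 10 and 9, and 0 to 17. Doc2a passed at log2 fold changes of 0.81 (DESeq2), 0.82 (no filter) and 0.62 (without both libraries numbered 2), and ranged from 0.59 to 0.93 with 1 library left out. Prrt2 ranged from 0.05 to 1.14 was at -0.030 without both libraries numbered 2, and at 2.66 with the TEC and sense intronic covariate, without passing. It could not be fitted under the stricter filter, which it did not pass. The Doc2a to Doc2b ratio ranged from 1.15 to 1.46. Cplx1 ranged from -0.121 to 0.054 with 1 library left out, above 0 without duplication replicate 2 (0.054) or wild type replicate 1 (0.025), and was at 0.18 with the TEC and sense intronic level as a covariate. Cplx2 ranged from -0.023, without duplication replicate 1, to 0.125, and was at -0.029 with that covariate, which also gave 0.16 for Syt1, 0.14 for Syt2, 0.011 for Syt7 and 0.32 for Vamp2. The cause of these changes was not tested. Same-numbered libraries deviated together at correlations of 0.10, 0.063 and 0.31, and duplication libraries 2 and 3, but not 1, correlated best with their own number, so the replicate block, under which Doc2a was at 0.79 and Prrt2 at 0.53, is an alternative and not the design. It changed no call among the 10 genes. The few counts of Prrt2 limit what its values can show.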

Other observations

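With names read as the table was deposited, 5 of the 10 genes carry the counts of another gene. The line named Prrt2 then has 114, 98 and 78 counts in duplication libraries and 42, 34 and 51 in wild type libraries, which after re-alignment belong to Mvp, another gene of the segment, and the log2 fold change printed against its name is 0.82. The line named Doc2a has 31, 20 and 28 counts in duplication libraries and 16, 15 and 17 in wild type libraries, and its fold change is 0.35 in place of 0.81. The line named Snap25 has 69, 59 and 51 counts in duplication libraries and 37, 41 and 41 in wild type libraries, whereas the 67374, 39977 and 44705 counts in duplication libraries and 32157, 37860 and 33318 in wild type libraries, which re-alignment gives to Snap25, stand against the name Mkks. Syt7 and Cplx1 are displaced likewise, and Doc2b, Syt1, Syt2, Cplx2 and Vamp2 are not.

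Per1, a clock and activity-induced gene chosen here after its values were seen, follows Vamp2 directly in the table, which runs in genomic order. Per1 had 15.5, 16.9 and 19.7 CPM in duplication libraries, against 39.5, 20.2 and 30.2 CPM in wild type libraries, so that wild type replicate 2 stood nearest to the duplication libraries for both neighbours. Vamp2 was at -0.71 and Per1 at -0.79 on the log2 scale.

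The other marker lists gave these sums. Astrocyte markers summed to 2658 to 2846 CPM in duplication libraries and 2655 to 2780 CPM in wild type libraries, microglia markers to 241 to 249 CPM in duplication and 212 to 240 CPM in wild type libraries, and endothelial markers to 78.3 to 93.2 CPM in duplication and 75.1 to 83.6 CPM in wild type libraries. Striatal markers summed to 84.2 to 90.2 CPM in duplication and 79.2 to 106 CPM in wild type libraries, and thalamic markers to 5.61 to 7.04 CPM in duplication and 5.15 to 6.37 CPM in wild type libraries. Excitatory neuron markers summed to 2021 to 2134 CPM in duplication and 1993 to 2509 CPM in wild type libraries.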
